A study of Glycine max with 6 samples.

Results

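The genes described here belong to protein families with members that build the apoplastic barriers of the root, the Casparian strip and suberin. They were chosen by words in the protein description that the deposited tables give for each gene, which name Casparian strip membrane proteins, CASP-like proteins, glycerol-3-phosphate acyltransferases, cytochrome P450 86 enzymes, 3-ketoacyl-CoA synthases, fatty acyl-CoA reductases, omega-hydroxypalmitate O-feruloyl transferases or GDSL esterases/lipases. In all, 266 of the 48667 genes listed met this rule, in 8 groups that share no gene, and 4 of them were predicted by the authors rather than annotated. Soybean (Glycine max) seedlings were grown in nutrient solution at pH 5.8 (control) or at pH 4.2 (acid-treated) for 30 days, and RNA was sequenced from 3 libraries per pH, each made from the roots of 2 plants. The labels name the genotype YC03-3 and the paper Huachun 6, so the genotype common to all 6 libraries is given only as named there. Nothing in the labels says how the plants of a library were grown apart from those of another, and p-values measure the spread between the libraries as labelled.

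In the root endodermis, CASP proteins of the plasma membrane form a scaffold that guides the local deposition of lignin, and the resulting Casparian strip seals the wall space between neighbouring cells. Suberin is a polyester of fatty acid derivatives, glycerol and ferulic acid that is laid down later on the inner face of the wall. Its aliphatic part is made by elongation of fatty acids, oxidation of their terminal carbon, reduction to alcohols, feruloylation and transfer to glycerol, after which the monomers are exported and joined. Both barriers control the passage of water, ions and protons between soil solution and stele. These roles are known best from Arabidopsis.

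Libraries held between 9137226 and 9358750 expected counts, and 3 counts correspond to between 0.312 and 0.34 CPM (counts per 1e6 of TMM effective library size, the scale of every CPM value here), a floor for counting error alone. Control replicate 1 stood apart for the barrier genes. It was the lowest of the 6 libraries in 52 of the 129 members tested (40.3%), against 18.3% of all genes tested. Acid replicate 1 and control replicate 2 were each the highest in 34 of them (26.4%), against 13.5% and 15% of all genes tested. Group medians are therefore also given without control replicate 1 and without acid replicate 1, and without another library where that moves them further. In whole roots, fewer cells of a type and less RNA per cell cannot be told apart.

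Most barrier genes were weakly expressed. Of the 266 members, 163 had counts in all 6 libraries and 129 passed the filter on low counts. The 137 members that did not pass had a mean count of at most 14.2 over the libraries, with a median of 1. Among them were 27 without a count in control roots and 29 without a count in acid-treated roots, so the members tested are not all members. With edgeR, 1 member was called, meaning an adjusted p under 0.05 and at least a 2-fold change, and it was lower in acid-treated roots. Over all 33490 genes tested, 0.558% were called, 0.227% higher and 0.331% lower. No member was called higher with edgeR. Higher members numbered 6 at an unadjusted p under 0.05 and 1 by DESeq2, which also called 3 lower members. DESeq2 called 2.77% of the 38245 genes it adjusted, 1.22% higher and 1.55% lower. At an unadjusted p under 0.05, 15 of the 129 members (11.6%) differed, 6 higher and 9 lower, against 11.8% of all genes, 4.21% higher and 7.61% lower. The 3 libraries of one pH lay wholly above or below those of the other in 18 members, 7 higher and 11 lower, against 16.4% of all genes tested, 7.17% higher and 9.24% lower. The share of barrier genes that differed was thus close to that of all genes. The log2 fold changes (positive where acid-treated roots were higher, and given below with their standard error, SE) had a median of -0.02 over the 129 members and -0.003 over all genes.

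**Figure D1:**
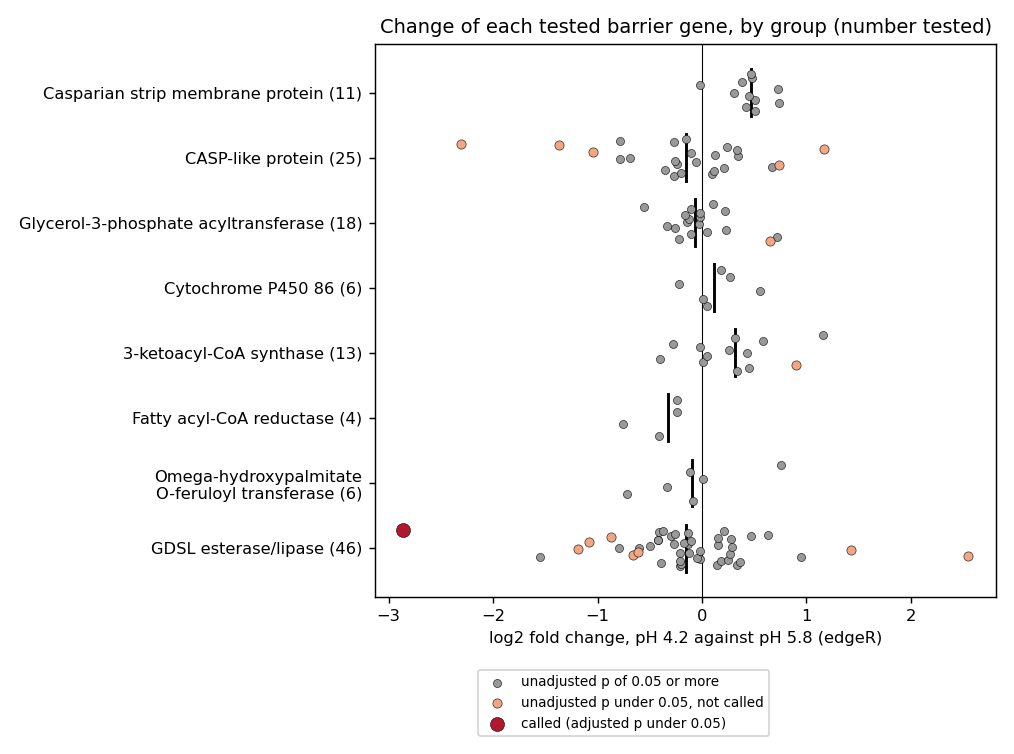
Log2 fold change of each tested barrier gene, acid-treated against control roots, with one point per gene in rows by group, the number tested in brackets and a black bar at each group's median. The single called gene lies at -2.86 among the GDSL esterases/lipases, and 10 of the 11 Casparian strip membrane protein genes lie above 0.

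Casparian strip membrane proteins are the scaffold of the strip itself and mark differentiated endodermis. All 11 genes of this description were tested, and all had counts in every library, so these defining markers of endodermis were detected in each of the root samples. Their mean level per length lay between 2.89 and 14.5 FPKM, and Glyma.02G201100, described as casparian strip membrane protein 1, was the most abundant. Its level was 3.26, 12.5 and 9.26 CPM in control replicates 1 to 3 and 14.5, 12.1 and 15.4 CPM in acid replicates 1 to 3. All acid-treated libraries lay above control replicates 1 and 3, but acid replicate 2 lay below control replicate 2. The means were 8.36 ± 4.71 CPM in the controls and 14 ± 1.69 CPM at pH 4.2 (SD, n = 3), giving a log2 fold change of 0.74 (SE 0.42, adjusted p = 0.559, edgeR).

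Control replicate 1 was also the lowest library in most of the other members. The gene with the smallest p, Glyma.10G075600 (Casparian strip membrane protein 4), was at 3.26, 9.65 and 6.97 CPM in the controls and 11.7, 8.70 and 12.7 CPM at pH 4.2, a log2 fold change of 0.73 (SE 0.38, adjusted p = 0.519, edgeR). Glyma.19G083200 (casparian strip membrane protein 5-like) showed the widest spread of controls, at 1.63, 12.3 and 8.54 CPM, against 11.3, 10.2 and 9.57 CPM at pH 4.2. Here control replicate 1 was far below the other 5 libraries, while control replicate 2 was above all of them. Only Glyma.10G075400 (Casparian strip membrane protein 1) had pH groups that did not overlap, at 2.60, 3.33 and 3.43 CPM in the controls and 5.09, 3.93 and 3.78 CPM at pH 4.2, and its log2 fold change of 0.45 (SE 0.31) did not pass the test (adjusted p = 0.640, edgeR).

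Of the 11 genes, 10 had a positive log2 fold change, with a median of 0.46 over the group, against 49.7% positive and a median of -0.003 over all genes. None reached an unadjusted p under 0.05 with edgeR, and DESeq2 called none. Summed over the group, expression was 30.4, 96.0 and 66.5 CPM in the controls and 95.2, 78.7 and 98.5 CPM at pH 4.2. The sum thus differed 3.16-fold between the highest and the lowest control library and 1.25-fold between acid-treated libraries, whereas the means of the pH groups differed 1.41-fold. Control replicate 1 was the lowest of all libraries in 10 of the 11 genes, and without it the median log2 fold change was 0.14, with 8 of 11 positive. Without control replicate 2 it was 0.90, and without acid replicate 1 it was 0.40. The single gene with a log2 fold change below 0, Glyma.10G075700 (casparian strip membrane protein 4-like, -0.02), was above 0 in several of the other fits. In RefSeq (Glycine_max_v4.0), Glyma.02G201000, Glyma.02G201100 and Glyma.02G201200 are neighbours, and their reads came out as whole counts in every library. By locus number Glyma.02G200900 adjoins them, and Glyma.10G075400, Glyma.10G075500, Glyma.10G075600 and Glyma.10G075700 follow each other. Most of the 11 genes lie in these runs, so they are not independent of each other in position.

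**Figure D2:**
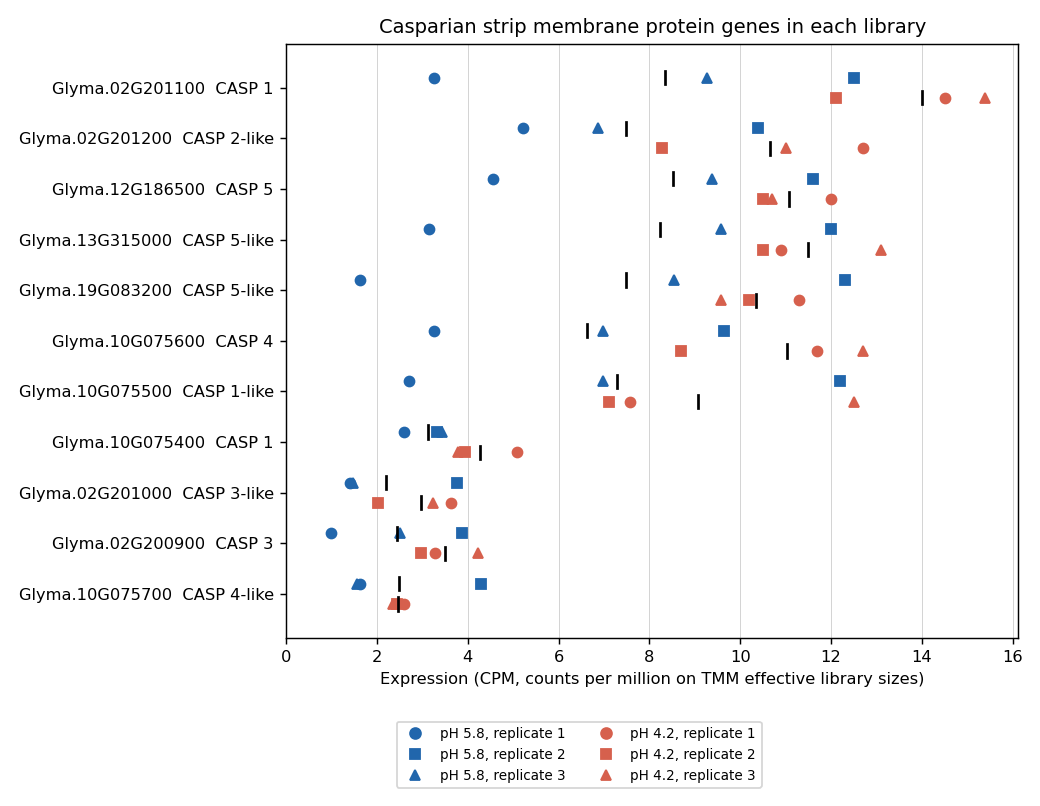
Expression in CPM of the 11 Casparian strip membrane protein (CASP) genes, ordered by mean FPKM, with one symbol per library (control blue, acid-treated red) and a black bar at each pH group's mean. Control replicate 1, the blue circle, is the lowest library in 10 of the 11 genes, and no acid-treated library lies below both control replicates 2 and 3 in any of them.

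CASP-like proteins are relatives of the CASP scaffold proteins, and many are expressed outside the endodermis, with functions that are mostly unknown. Of 45 members, 25 were tested. At an unadjusted p under 0.05 with edgeR, 2 members were higher and 3 lower, against 4.21% and 7.61% of all genes tested. No member was called with edgeR and 1 lower member by DESeq2. The median log2 fold change was -0.15, with 10 of 25 positive, and it was -0.25 without control replicate 1, -0.20 without acid replicate 1 and -0.00 without control replicate 2. Summed expression was between 269 and 320 CPM in the controls and between 264 and 346 CPM at pH 4.2.

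The largest difference among them was that of Glyma.20G033700, described as CASP-like protein 6. It was at 3.69, 7.51 and 7.49 CPM in the controls and at 0.566, 1.06 and 2.11 CPM at pH 4.2. Every acid-treated library lay below every control library, although acid replicate 1 was close to the floor of 3 counts. The means were 6.23 ± 2.20 and 1.25 ± 0.791 CPM (SD, n = 3), giving a log2 fold change of -2.31 (SE 0.51). Its adjusted p was 0.110 with edgeR and 0.00547 with DESeq2. In RefSeq (Glycine_max_v4.0) its neighbour is Glyma.20G033800, which carries the same description and was at 8.14, 11.6 and 13 CPM in the controls and 7.81, 8.17 and 11.1 CPM at pH 4.2. The pH groups of that neighbour overlapped, with a log2 fold change of -0.27 (SE 0.27, adjusted p = 0.744, edgeR). The counts of both were whole numbers in all libraries.

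The other CASP-like genes with an unadjusted p under 0.05 went both ways. Glyma.18G208700 (CASP-like protein 4B1) was at 7.6, 2.15 and 6.25 CPM in the controls and 2.38, 1.80 and 2 CPM at pH 4.2. Control replicate 2 lay within the acid-treated range, and the log2 fold change of -1.37 (adjusted p = 0.295, edgeR) passed the threshold only without that library (adjusted p = 0.0356, edgeR). Glyma.16G143500, described by an Arabidopsis lyrata locus name, had a log2 fold change of -1.05 (adjusted p = 0.252, edgeR), with pH groups that overlapped. Among the higher ones, Glyma.07G251300 (CASP-like protein 7) was at 19.5, 23.2 and 21.3 CPM in the controls and 41.5, 25.5 and 39.5 CPM at pH 4.2, without overlap. It had the smallest p of the CASP-like genes that were higher, with a log2 fold change of 0.74, a SE of 0.23 and an adjusted p of 0.232 from edgeR. Glyma.17G064800 (CASP-like protein 2C1) was at 3.15, 2.25 and 3.43 CPM against 10.3, 4.35 and 5.23 CPM, with a log2 fold change of 1.16 (adjusted p = 0.282, edgeR).

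The most abundant CASP-like gene per length was Glyma.17G023000 (CASP-like protein 8), at a mean of 31.4 FPKM. It was at 25.6, 34.0 and 32.4 CPM in the controls and 54.2, 26.2 and 35.6 CPM at pH 4.2, where only acid replicate 1 stood clearly above the controls (log2 fold change 0.33, adjusted p = 0.705, edgeR). Control replicate 1 was also the lowest library for Glyma.07G017000 (CASP-like protein 3A1), named after its values were seen, at 9.33, 33.8 and 24.5 CPM in the controls and 39.2, 36.2 and 32.3 CPM at pH 4.2. Its log2 fold change was 0.67 (SE 0.39, adjusted p = 0.573, edgeR).

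Cytochrome P450 86 enzymes hydroxylate the terminal carbon of fatty acids, and CYP86A1 and CYP86B1 are the suberin enzymes of Arabidopsis roots. Of 8 members, 6 were tested, 5 with a positive log2 fold change, and the median was 0.11. With edgeR none had an unadjusted p under 0.05, and DESeq2 called none. The most abundant was Glyma.14G192500 (cytochrome P450 86A1-like), at 5.54, 21.8 and 18 CPM in the controls and 25.2, 13.5 and 12.6 CPM at pH 4.2. Control replicate 1 was lowest and acid replicate 1 highest, with the other 4 libraries between them. The means were 15.1 ± 8.50 and 17.1 ± 7.07 CPM (SD, n = 3), giving a log2 fold change of 0.18 (SE 0.48, adjusted p = 0.908, edgeR).

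Its counterpart Glyma.11G175900, also described as 86A1-like, had the same lowest and highest libraries, at 2.93, 11.9 and 13.3 CPM in the controls and 18.2, 8.17 and 7.68 CPM at pH 4.2 (log2 fold change 0.27, adjusted p = 0.872, edgeR). The 86B1-like gene Glyma.11G100100 was at 1.52, 6.86 and 8.01 CPM in the controls and 7.02, 1.91 and 5.23 CPM at pH 4.2 (log2 fold change -0.22, adjusted p = 0.916, edgeR). In both genes control replicate 1 was again the lowest. The 86A8-like genes Glyma.07G069500 and Glyma.03G008100 and the 86A22 gene Glyma.05G208900 were at most at 3.17 CPM in any library, with log2 fold changes of 0.55, 0.04 and 0.00. Summed over the group, expression was 12.4, 45.3 and 43.7 CPM in the controls and 57.2, 27.9 and 27.8 CPM at pH 4.2. The lowest library was control replicate 1 in 5 of the 6 genes. Without it the group's median log2 fold change was -0.19, without acid replicate 1 it was -0.22, and without control replicate 2 it was 0.51, so the sign of the group's median changed with the library left out.

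Fatty acyl-CoA reductases make the primary alcohols of suberin and its waxes. Of 6 members, 4 were tested, and all 4 had log2 fold changes below 0, with a median of -0.32. The median was -0.70 without control replicate 1, -0.61 without acid replicate 1 and -0.14 without acid replicate 2. None had an unadjusted p under 0.05 with edgeR and none was called by DESeq2. Glyma.12G087400 was at 1.63, 14.4 and 14.6 CPM in the controls and 15.4, 3.50 and 7.12 CPM at pH 4.2 (log2 fold change -0.24, SE 0.74). Glyma.11G185000 was at 1.74, 11.2 and 17.2 CPM in the controls and 13.4, 2.97 and 6.34 CPM at pH 4.2 (log2 fold change -0.41, SE 0.75). Control replicate 1 was the lowest library for both genes, and the control libraries differed 8.95-fold and 9.89-fold among themselves, more than the pH means did. The remaining pair, Glyma.11G185200 and Glyma.12G183300, are both described as fatty acyl-CoA reductase 3-like. Glyma.11G185200 was at 1.19, 0.644 and 1.35 CPM in the controls and 0.113, 0.531 and 1.22 CPM at pH 4.2 (log2 fold change -0.76). Acid replicate 1 was below the floor of 3 counts for this gene, and without that library the log2 fold change was -0.27. Glyma.12G183300 was at 4.78, 1.07 and 0.520 CPM in the controls and 1.02, 1.91 and 2.45 CPM at pH 4.2 (log2 fold change -0.24). Control replicate 1 was not the lowest library for either of them. The adjusted p of these 4 genes was at least 0.738 with edgeR.

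Omega-hydroxypalmitate O-feruloyl transferases attach ferulic acid to the omega-hydroxy acids of suberin. Most members of this group are described only as -like, and whether they act on suberin was not tested. Of 15 members, 6 were tested, 2 with a positive log2 fold change, and the median was -0.10. Without control replicate 1 it was -0.16, without acid replicate 1 -0.25, without control replicate 2 0.04 and without acid replicate 2 0.12. None had an unadjusted p under 0.05 with edgeR, and DESeq2 called none. The most abundant, Glyma.14G057700, was at 41.9, 43.7 and 49.0 CPM in the controls and 44.4, 32.7 and 29.4 CPM at pH 4.2. Acid replicates 2 and 3 lay below all controls, while acid replicate 1 lay within them (44.9 ± 3.71 and 35.5 ± 7.88 CPM, SD, n = 3; log2 fold change -0.34, SE 0.21, adjusted p = 0.599, edgeR).

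Glyma.06G167600 was also lowest in control replicate 1, at 1.74, 10.7 and 12.6 CPM in the controls and 9.17, 3.82 and 2.23 CPM at pH 4.2 (log2 fold change -0.72, adjusted p = 0.743, edgeR). Glyma.19G096100 had the largest positive value, at 2.28, 6.33 and 4.06 CPM in the controls and 10.9, 6.47 and 4.12 CPM at pH 4.2 (log2 fold change 0.76, adjusted p = 0.591, edgeR). In both, the range of the acid-treated libraries overlapped that of the controls. Glyma.06G029900, Glyma.14G071600 and Glyma.17G217200 had log2 fold changes of -0.08, 0.00 and -0.12, with adjusted p of at least 0.903 from edgeR. The member Glyma.08G306500, which did not pass the filter, had 45 counts in acid replicate 1 and 0 in each of the other 5 libraries.

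3-Ketoacyl-CoA synthases carry out the first step of fatty acid elongation and supply very-long-chain acids for suberin and for waxes. Of 32 members, 13 were tested, 10 of them with a positive log2 fold change, and the median was 0.32. DESeq2 called none. With edgeR 1 higher and 0 lower members had an unadjusted p under 0.05, against 4.21% and 7.61% of all genes tested. That gene was Glyma.04G149300 (3-ketoacyl-CoA synthase 11-like), at 13.2, 15.7 and 6.25 CPM in the controls and 23.7, 20.4 and 21.5 CPM at pH 4.2. All acid-treated libraries exceeded all controls, and control replicate 3 was lowest. The means were 11.7 ± 4.89 and 21.8 ± 1.67 CPM (SD, n = 3), giving a log2 fold change of 0.90 (SE 0.32, adjusted p = 0.302, edgeR).

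The most abundant synthase, Glyma.17G251000 (4-like), was at 54.4, 70.9 and 70.3 CPM in the controls and 102, 73.0 and 69.2 CPM at pH 4.2 (log2 fold change 0.32, adjusted p = 0.655, edgeR). The smallest p among lower members was that of Glyma.06G012500 (4-like), with a log2 fold change of -0.40 (adjusted p = 0.644, edgeR). Glyma.03G260300 is described as 3-ketoacyl-CoA synthase 1, an enzyme of very-long-chain wax synthesis in Arabidopsis, and was named after its values were seen. It was at 2.06, 13.8 and 7.39 CPM in the controls and 13, 9.66 and 9.24 CPM at pH 4.2, with control replicate 1 again lowest. Without control replicate 1 the median log2 fold change of the 13 genes was 0.10, and without acid replicate 1 it was 0.16.

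Glycerol-3-phosphate acyltransferases of land plants transfer acyl groups to glycerol-3-phosphate, and GPAT5 serves the glycerol esters of root suberin in Arabidopsis. The description words also took in 10 genes for 1-acyl-sn-glycerol-3-phosphate acyltransferases, which add the second acyl chain in membrane lipid synthesis, and 2 genes for plastid enzymes. Of the 29 members, 18 were tested, 6 with a positive log2 fold change, and the median was -0.07, with -0.02 without control replicate 1 and -0.10 without acid replicate 1. DESeq2 called none. With edgeR 1 higher and 0 lower members had an unadjusted p under 0.05, against 4.21% and 7.61% of all genes tested. The gene with that p was 1 of the plastid enzymes, Glyma.01G014200, at 5.64, 4.18 and 4.27 CPM in the controls and 7.24, 7.43 and 7.46 CPM at pH 4.2. Its pH groups did not overlap, and the log2 fold change was 0.65 (SE 0.25, adjusted p = 0.354, edgeR). Plastid enzymes of this kind serve membrane lipids rather than suberin.

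Among the 17 members that are neither, 6 were tested, with a median log2 fold change of 0.01. The GPAT5-like genes, named after their values were seen, were both low in control replicate 1. Glyma.02G249300 was at 0.977, 1.82 and 2.39 CPM in the controls and 4.19, 2.87 and 1.56 CPM at pH 4.2 (log2 fold change 0.72, SE 0.50, adjusted p = 0.642, edgeR). Glyma.14G067200 was at 0.977, 3.54 and 4.16 CPM in the controls and 6.11, 2.02 and 2 CPM at pH 4.2 (log2 fold change 0.22, SE 0.63, adjusted p = 0.915, edgeR). In both, acid replicate 1 was the highest library. The 10 membrane lipid enzymes were all tested and gave a median of -0.12. The most abundant of the whole group was one of them, Glyma.10G095500, at 24.8 ± 2.51 CPM in the controls and 22.5 ± 1.19 CPM at pH 4.2 (SD, n = 3, with a log2 fold change -0.14, adjusted p = 0.792, edgeR). The smallest p among lower members was also one of these, Glyma.17G248200, with a log2 fold change of -0.55 (adjusted p = 0.569, edgeR).

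**Figure D3:**
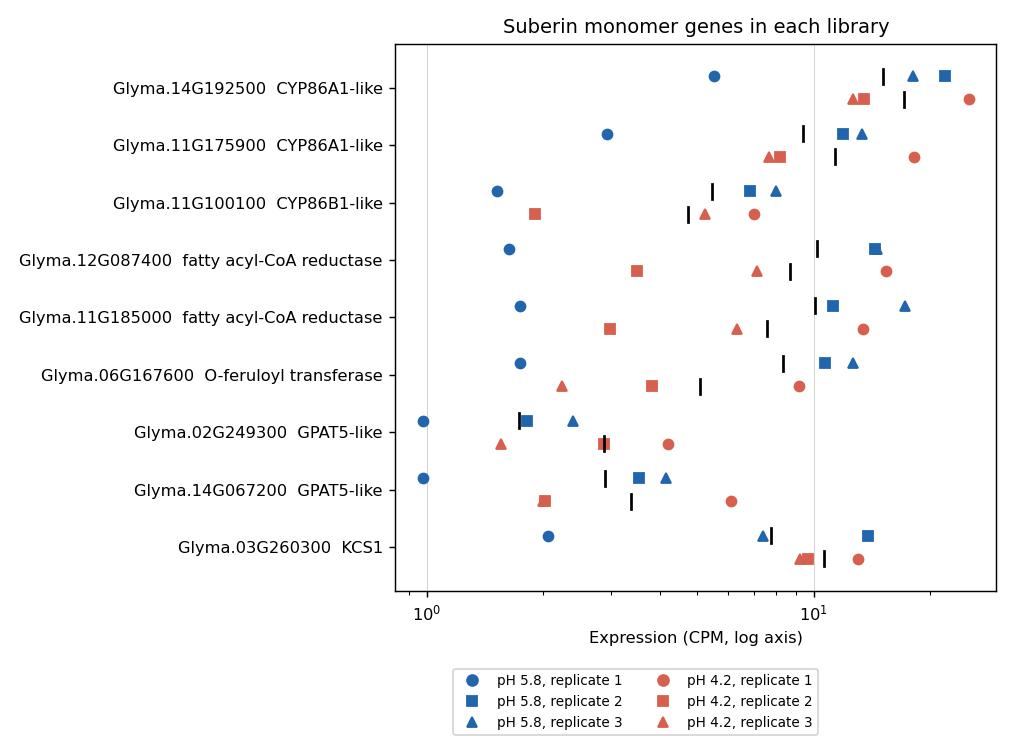
Expression in CPM (log axis) of 9 genes from the suberin monomer groups, with one symbol per library (control blue, acid-treated red) and a black bar at each pH group's mean. Control replicate 1 is the lowest library for each gene drawn, but the genes were chosen for the plot after their values were seen. Among all tested members it was lowest in 5 of 6 P450 86 genes, 2 of 4 reductases and 2 of 6 O-feruloyl transferases. It was lowest in 6 of 13 3-ketoacyl-CoA synthases and 5 of 18 glycerol-3-phosphate acyltransferases.

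GDSL esterases/lipases form a large family of hydrolases and acyltransferases, of which some members join or break down suberin and cutin in Arabidopsis while most have other substrates. Of 120 members, 46 were tested. The median log2 fold change was -0.15, with 16 of 46 positive, and it was -0.23 without control replicate 1, -0.15 without acid replicate 1 and 0.01 without control replicate 2. At an unadjusted p under 0.05 with edgeR, 2 members were higher and 6 lower, against 4.21% and 7.61% of all genes tested. The family held the single called gene, Glyma.19G262900, described as GDSL esterase/lipase 5-like. It was at 13, 6.22 and 14.8 CPM in the controls and at 2.15, 0.849 and 1.67 CPM at pH 4.2. Every acid-treated library lay below every control library, and control replicate 2 was the lowest control. Expression fell from 11.3 ± 4.52 CPM to 1.56 ± 0.658 CPM (SD, n = 3), a 7.26-fold decrease with a log2 fold change of -2.86 and a SE of 0.45 (adjusted p = 0.0406, edgeR). DESeq2 gave an adjusted p of 5.98e-06. When 1 library was left out, the log2 fold change stayed between -3.16 and -2.54, but the gene was called only without control replicate 2 (adjusted p = 0.00825, edgeR). Its adjusted p from edgeR was 0.101 without control replicate 1, 0.117 without control replicate 3, and 0.103, 0.214 and 0.125 without acid replicates 1, 2 and 3.

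With DESeq2, 1 higher and 1 further lower GDSL gene were called. Glyma.10G157200 (At1g54790-like) was higher, at 6.95, 18.9 and 8.12 CPM in the controls and 23.9, 31.8 and 35.4 CPM at pH 4.2. Its pH groups did not overlap, and control replicate 2 was the nearest to the acid-treated range. The means were 11.3 ± 6.58 and 30.4 ± 5.89 CPM (SD, n = 3), giving a log2 fold change of 1.42 (SE 0.38). The adjusted p was 0.167 with edgeR, 0.0197 with DESeq2, and 0.0107 with edgeR without control replicate 2. Glyma.11G190600 (At5g22810) was lower, at 15.8, 36.3 and 22.3 CPM in the controls and 9.85, 10.4 and 12.4 CPM at pH 4.2. The pH groups did not overlap, and control replicate 2 was the farthest from the acid-treated libraries. Its log2 fold change was -1.19 (SE 0.31), and the adjusted p was 0.16 with edgeR and 0.0466 with DESeq2.

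The genes below described as CPRD49, a name from a drought-induced cowpea transcript, went in different directions, and none of them was called by either tool. The tested CPRD49 genes Glyma.11G229500 and Glyma.18G027800 are not described here. Glyma.07G150300, the most abundant GDSL gene at a mean of 35.3 FPKM, was at 53.1, 41.3 and 51.3 CPM in the controls and 28.1, 28.4 and 35.6 CPM at pH 4.2. No control overlapped an acid-treated library, and the log2 fold change was -0.66 (SE 0.20, adjusted p = 0.217, edgeR). Glyma.07G150200 (CPRD49-like) was at 0.651, 2.79 and 0.937 CPM in the controls and 20.7, 2.33 and 2.78 CPM at pH 4.2. Its log2 fold change of 2.55 (adjusted p = 0.318, edgeR) was the largest of all members tested, and it rested on acid replicate 1. Without that library the log2 fold change was 0.81. Glyma.18G201300, also CPRD49, was at 5.98 ± 1.64 CPM in the controls and 9.26 ± 1.4 CPM at pH 4.2 (SD, n = 3, with a log2 fold change 0.63, adjusted p = 0.432, edgeR), without overlap. The other lower GDSL genes at an unadjusted p under 0.05 were Glyma.15G081000 (-1.08), Glyma.17G100800 (-0.88) and Glyma.09G034900 (-0.61 as log2 fold changes), with adjusted p between 0.194 and 0.384 from edgeR.

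**Figure D4:**
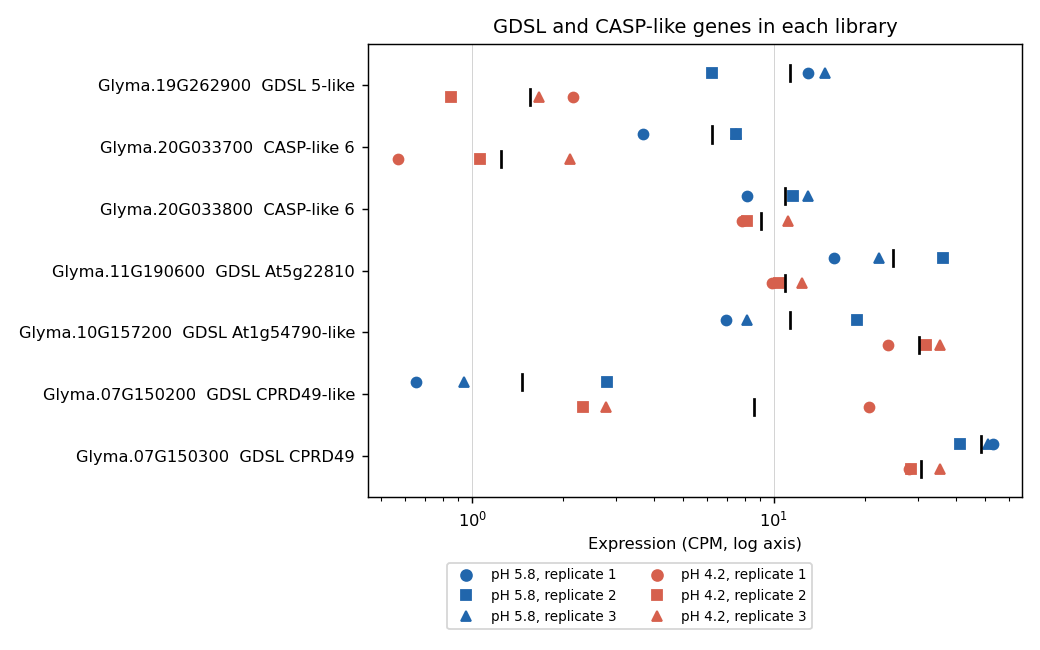
Expression in CPM (log axis) of 5 GDSL esterase/lipase and 2 CASP-like genes, with one symbol per library (control blue, acid-treated red) and a black bar at each pH group's mean. In Glyma.19G262900 the acid-treated libraries lie between 0.849 and 2.15 CPM and the controls between 6.22 and 14.8 CPM, whereas the high mean of Glyma.07G150200 in acid-treated roots rests on a single library at 20.7 CPM.

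At the level of whole groups, the means of the pH-treatments differed by less than the control libraries did among themselves in 7 of the 8 groups, the exception being the glycerol-3-phosphate acyltransferases. Single libraries vary more than means of 3, so this comparison cannot show whether pH had an effect. The ratio of the acid-treated to the control mean of summed CPM was 1.41, 1.11 and 0.802 in the Casparian strip, P450 86 and reductase groups, where the controls differed most, against a ratio of the highest to the lowest control library of 3.16, 3.66 and 3.56. For glycerol-3-phosphate acyltransferases the sums were much alike, at 180 ± 4.17 CPM in the controls and 167 ± 2.56 CPM at pH 4.2 (SD, n = 3), and no control overlapped an acid-treated library. Most of that total came from the 1-acyl-sn-glycerol-3-phosphate enzymes (112 ± 4.22 and 103 ± 6.76 CPM), whose ranges overlapped. The sum of the 2 plastid enzymes was higher at pH 4.2 (11.2 ± 1.2 and 13.8 ± 1.13 CPM). This came from Glyma.01G014200 (log2 fold change 0.65), whereas the other plastid gene was at -0.03. The members that are neither were at 56.9 ± 2.21 and 50 ± 7.57 CPM, with ranges that overlapped. GDSL esterases/lipases summed to 451 ± 41.6 and 407 ± 18.7 CPM, 3-ketoacyl-CoA synthases to 162 ± 34.0 and 205 ± 18.3 CPM, and O-feruloyl transferases to 79.6 ± 10.9 and 70.0 ± 18 CPM (SD, n = 3). The ranges of these groups overlapped. All sums are descriptions without a test, since single abundant genes weigh most in them.

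**Figure D5:**
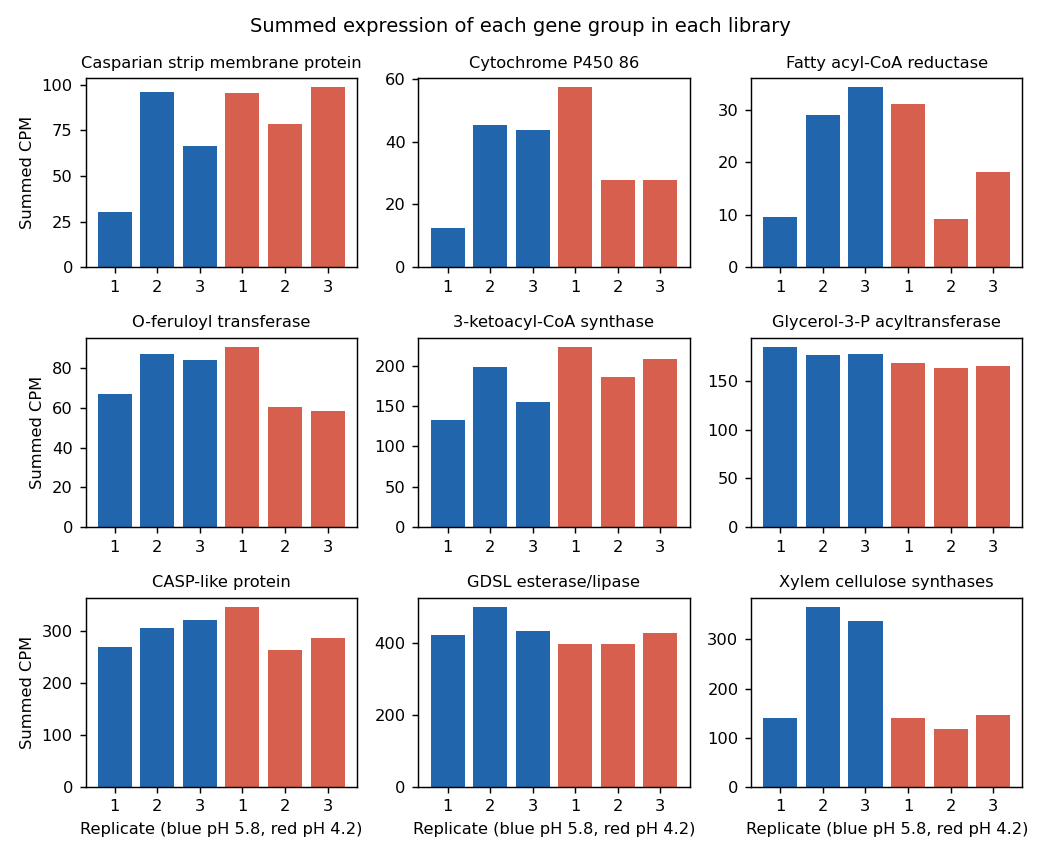
Summed CPM of each barrier gene group and of the cellulose synthases of the secondary wall in each library, as bars from 0 (control blue, acid-treated red). Control replicate 1 has the lowest sum of Casparian strip membrane protein (30.4 CPM) and P450 86 genes (12.4 CPM), and acid replicate 1 has the highest sum of P450 86 genes (57.2 CPM).

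Other genes of the barriers were read from lists of description words. SHORT-ROOT moves from the stele into the next cell layer and specifies endodermis in Arabidopsis. All 6 SHORT-ROOT-like genes were tested, and 4 were lower at an unadjusted p under 0.05, of which 1 was called with edgeR and by DESeq2. Over all genes tested, 7.61% were lower at that p and 0.331% were called lower with edgeR. DESeq2 called 1.55% of the genes it adjusted lower. The called gene, Glyma.15G028600, was at 15.0, 6.54 and 19.4 CPM in the controls and 1.13, 1.17 and 1.11 CPM at pH 4.2, without overlap. It fell 11.9-fold, with a log2 fold change of -3.57 and a SE of 0.45 (adjusted p = 0.0199, edgeR). With 1 library left out it stayed called in 2 of 6 fits, without control replicate 2 (adjusted p = 0.00239) and without control replicate 3 (adjusted p = 0.0435, edgeR). In the other 4 fits its adjusted p lay between 0.0622 and 0.133, and the log2 fold change lay between -3.90 and -3.22 in all 6. The most abundant SHORT-ROOT-like gene, Glyma.01G194200, was at 71.2, 58.2 and 76.6 CPM in the controls and 50, 35.7 and 30.3 CPM at pH 4.2 (log2 fold change -0.83, SE 0.24, adjusted p = 0.201, edgeR).

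In Arabidopsis, GSO receptor kinases sense whether the strip is closed, peroxidase 64 polymerises its lignin, a respiratory burst oxidase supplies oxidant for this, and a dirigent protein positions it. Of 33 genes with such descriptions, 17 were tested and none was called by either tool. At an unadjusted p under 0.05 with edgeR, 3 were higher and 1 lower, against 4.21% and 7.61% of all genes tested. Most of the 33 are receptor kinases matched only by the words GSO1 or GSO2. Whether these act on the strip in soybean was not tested. The 2 peroxidase 64 genes went opposite ways. Glyma.01G163100 was at 19, 31.4 and 37.3 CPM in the controls and 17.3, 12.9 and 9.68 CPM at pH 4.2 (log2 fold change -1.13, SE 0.31, adjusted p = 0.176, edgeR). Glyma.14G221400 was at 8.79, 16.2 and 8.95 CPM in the controls and 20.3, 19.4 and 19.5 CPM at pH 4.2 (log2 fold change 0.80, SE 0.27, adjusted p = 0.278, edgeR). In neither did the pH groups overlap. The dirigent protein 10-like gene Glyma.12G067400 and the GSO1 gene Glyma.17G087700 had log2 fold changes of 0.98 and 0.95 (adjusted p of 0.297 and 0.325, edgeR). These 4 genes were named after their values were seen. The most abundant of the list, the GSO2-like gene Glyma.11G045700, had a log2 fold change of -0.29 (adjusted p = 0.673, edgeR).

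MYB39, MYB92, MYB93 and MYB107 belong to a group of factors that drive suberin genes in Arabidopsis. Of 11 such genes 6 were tested and none was called by either tool. At an unadjusted p under 0.05 with edgeR, 1 gene was lower, against 7.61% of all genes tested. It was the most abundant of them, the MYB93 gene Glyma.05G062300, at 48.4, 50.2 and 60.8 CPM in the controls and 44.4, 35.2 and 29.5 CPM at pH 4.2 (log2 fold change -0.55, SE 0.21, adjusted p = 0.358, edgeR). Of 25 genes for fatty acid activation and the other elongation steps 22 were tested and none was called by either tool. Among them 1 was lower at an unadjusted p under 0.05 with edgeR, against the same 7.61% of all genes. Their most abundant gene, the long chain acyl-CoA synthetase 4 gene Glyma.01G225200, was at 134 ± 26.4 CPM in the controls and 144 ± 27.3 CPM at pH 4.2 (SD, n = 3, with a log2 fold change 0.11, adjusted p = 0.891, edgeR). Of 12 genes for export, namely ABC transporters of the G family and anchored lipid transfer proteins, 5 were tested, none was called by either tool and none had an unadjusted p under 0.05. The ABCG11-like gene Glyma.13G043800 was at 31.3, 21.2 and 63.7 CPM in the controls and 178, 60 and 23.4 CPM at pH 4.2, with acid replicate 1 far above the rest (log2 fold change 1.17, adjusted p = 0.571, edgeR).

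Markers of other tissues were read from description words too. Of 14 xylem genes (cellulose synthase subunits of the secondary wall and xylem cysteine proteinases) 12 were tested, and none was at 0 in all libraries. At an unadjusted p under 0.05 with edgeR, 7 were lower, against 7.61% of all genes, and none was called by either tool. All 12 had log2 fold changes below 0, with a median of -0.97. It was -1.35 without control replicate 1 and -0.69 without control replicate 2, where 2 genes were above 0. The summed expression of the xylem genes was between 147 and 394 CPM in the controls and between 127 and 162 CPM at pH 4.2. The ratio of the acid-treated to the control mean was 0.49. Control replicate 1, at 147 CPM, was at the level of the acid-treated libraries. Of 37 genes for chlorophyll a-b binding proteins and the small subunit of ribulose bisphosphate carboxylase, 32 were tested and none was at 0 in all libraries, with sums of 1290 to 2100 CPM in the controls and 1540 to 2360 CPM at pH 4.2. Green-tissue transcripts were therefore present in all root samples, in overlapping amounts. Leghemoglobin words matched only 2 reductase genes, so nodule tissue was not assessed. The part of these tissues in the values of the barrier genes was not tested.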

How the data were processed

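RNA-seq of 6 soybean root libraries was used, with groups taken from the pH in the labels. The authors mapped filtered reads with HISAT to the genome build Williams82.a2.v1, added predicted transcripts, mapped the reads to this reference with Bowtie2 and calculated with RSEM the deposited expected counts and FPKM values for each gene. Tool versions are not given in the sources used here. The paper names an RNeasy kit for RNA extraction, the labels CTAB-PBIOZOL.

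Expected counts were rounded, and a gene not listed for a library was set to 0. The test was edgeR 4.0.16 in R 4.3.3 (filterByExpr, TMM, robust quasi-likelihood fit), with Benjamini-Hochberg adjustment over all genes tested. CPM are counts per 1e6 of TMM effective library size, given as mean ± SD. The standard error (SE) was taken as |log2 fold change|/√F. An exact permutation test of 3 against 3 libraries cannot go below p = 0.1, so the adjusted p-values rest on variance that edgeR shares across genes. Alternatives were RLE size factors, DESeq2 1.42.0, other filters, limma-trend 3.58.1 on FPKM with a pseudocount of 0.1 or 1, a replicate block, each library left out, and membership by a gene's leading description only. The fits were first tested on simulated data.

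Named are every called member, in each group the tested member with the highest mean FPKM and that with the smallest p in each direction, every tested member of groups with 10 or fewer tested, in the other lists the called gene and the most abundant one, and members called by DESeq2. Further genes that the text describes were chosen after their values were seen. The members and lists were chosen with earlier results of these data known. RefSeq (Glycine_max_v4.0), matched to 211 of the 266 members through protein accessions, was used only for neighbours, and no coordinates are given because the builds differ. Tables and plots were made in Python 3.11.15 (pandas 2.3.3, numpy 2.4.6, matplotlib 3.10.9).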

Additional observations from a re-analysis of the deposited data

How the results depend on the processing

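The number of barrier genes called higher was 0 with edgeR and 1 with DESeq2, and ranged from 0 to 1 with 1 library left out. The number called lower was 1 with edgeR and 3 with DESeq2, and ranged from 0 to 2 with 1 library left out. At an unadjusted p under 0.05, 6 members were higher, 10 without a filter on low counts, and 3 to 14 with 1 library left out. The 9 lower ones became 7 to 15 with 1 library left out. In each case the highest number came without control replicate 2. The other settings left these counts within 1.5 times the edgeR value. Fewer libraries give a fit less power, and the causes of these differences were not tested.

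Of the 38 genes named by rule, 24 had the same sign in all fits. The others had main log2 fold changes of at most 0.55 in size, and some were larger with 1 library left out. That of Glyma.10G075700 was 0.00 with RLE size factors, 0.01 with DESeq2 and without a filter, 0.13 and 0.08 with limma-trend (pseudocounts 0.1 and 1) and 0.12 with the replicate block. With limma-trend and a pseudocount of 0.1, Glyma.12G087400 gave 0.02 and Glyma.12G183300 0.17, and the replicate block gave 0.22 for the latter. Glyma.14G071600 gave -0.15 and -0.06 with limma-trend and -0.09 with the block, and Glyma.05G208900 gave -0.14, -0.02 and -0.14. With 1 library left out, log2 fold changes ranged from -0.26 to 0.63 for Glyma.10G075700, -0.94 to 0.16 for Glyma.12G087400, -0.69 to 1.16 for Glyma.12G183300, -1.10 to 0.23 for Glyma.11G185000, -0.22 to 0.08 for Glyma.06G029900, -0.31 to 0.37 for Glyma.14G071600 and -0.48 to 0.37 for Glyma.17G217200. They ranged from -0.22 to 0.54 for Glyma.14G192500, -0.24 to 0.62 for Glyma.11G175900, -0.66 to 0.18 for Glyma.11G100100, -0.00 to 1.24 for Glyma.07G069500, -0.22 to 0.55 for Glyma.03G008100, -0.52 to 0.39 for Glyma.05G208900 and -0.04 to 0.24 for Glyma.01G225200.

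Libraries with the same replicate number did not deviate together (correlations of -0.135, -0.0543 and -0.373). Deviations from a mean of 3 libraries constrain each other, so these values cannot decide whether the samples were paired. The methods state no pairing. With the replicate block, 0 members were called higher and 1 lower, as without it, and at an unadjusted p under 0.05 4 were higher and 8 lower.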
